A study of Homo sapiens with 5 samples.

Results

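The Notch receptors, ligands and HES/HEY targets described here were 10 genes taken by symbol: NOTCH1, NOTCH2, NOTCH3, JAG1, JAG2, DLL1, RBPJ, HES1, HES6 and HEY1. All 10 had a row among the 13822 rows of the deposited FPKM table (sequenced fragments per kilobase of gene, scaled to the size of the library), and all 10 were among the 12245 genes with a mean of at least 0.5 FPKM that entered the test. The cells were RH4, an established human alveolar rhabdomyosarcoma line, a muscle-lineage tumour that carries the PAX3-FOXO1 fusion gene. The control group, si-SCR, had 3 libraries from cells given a scrambled siRNA, and the si-circVAMP3 group had 2 libraries from cells given an siRNA against the back-splicing junction of circVAMP3, a circular RNA of the VAMP3 gene. Both groups received 30 nM siRNA by transfection, for which the paper names Dharmafect-1 or Lipofectamine RNAiMAX. RNA came from cells taken 24 h after a change of medium, itself made 24 h into the treatment. No untransfected cells were part of the comparison, and all libraries were stranded and made from poly-A+ RNA of 1 cell line. From the step size of the FPKM values, the si-SCR libraries held at least 23896120, 22533708 and 22506079 counted fragments and the si-circVAMP3 libraries at least 16856508 and 26193636.

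Notch is a receptor on the cell surface that is cut in steps when a ligand of the Delta or Jagged type on a neighbouring cell binds it. The freed intracellular domain enters the nucleus, joins the DNA-binding protein RBPJ and a Mastermind coactivator, and switches on genes such as the HES and HEY repressors; without it, RBPJ sits with corepressors. In the muscle lineage Notch activity is known for keeping precursors from differentiating.

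The siRNA is shown because it defines the treated group. Its capitals mark the bases that match the start of VAMP3 exon 3, the 8 bases before them match the end of exon 4, and the last 2 letters are an overhang.
si-circVAMP3 siRNA: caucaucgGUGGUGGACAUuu
In GRCh38, exon 3 of VAMP3 lies at chr1:7777160-7777318 (159 bases) and exon 4 at chr1:7778118-7778169 (52 bases), which gives a circle of 211 bases; the joined sequence was found 0 times in the linear transcript. VAMP3, which codes for a vesicle fusion protein, was at 36.4, 35.4 and 37.4 FPKM in si-SCR and at 29.4 and 30.2 FPKM in si-circVAMP3. Both si-circVAMP3 libraries were below all 3 si-SCR libraries. The log2 difference on log2(FPKM + 0.5), here and throughout si-circVAMP3 minus si-SCR, was -0.29 (SE 0.043, adjusted p = 0.00496 by limma with Benjamini-Hochberg adjustment over all genes tested). Without si-circVAMP3 replicate 1 the adjusted p was 0.0507. Poly-A+ libraries read mainly the linear mRNA, so this row does not measure how far the circle itself was reduced.

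Transcripts of 2 of the 10 members fell in si-circVAMP3 cells, the receptors NOTCH2 and NOTCH3, and 0 rose. Over all genes tested the same rule (adjusted p under 0.05) called 3723 of 12245, or 30.4%, with 1784 higher and 1939 lower. The share of members called, 20.0%, was therefore below that of the whole table. The median log2 difference was -0.0054 over the members and 0.0071 over all genes, and the median size of the difference was 0.11 and 0.15. The groups did not overlap for 3 members (NOTCH2, NOTCH3 and HES1, lower in each), against 58.5% of all genes tested. The number called over all genes was 2199 without si-SCR replicate 2, 1305 without si-circVAMP3 replicate 1 and 1260 without si-circVAMP3 replicate 2.

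**Figure D1:**
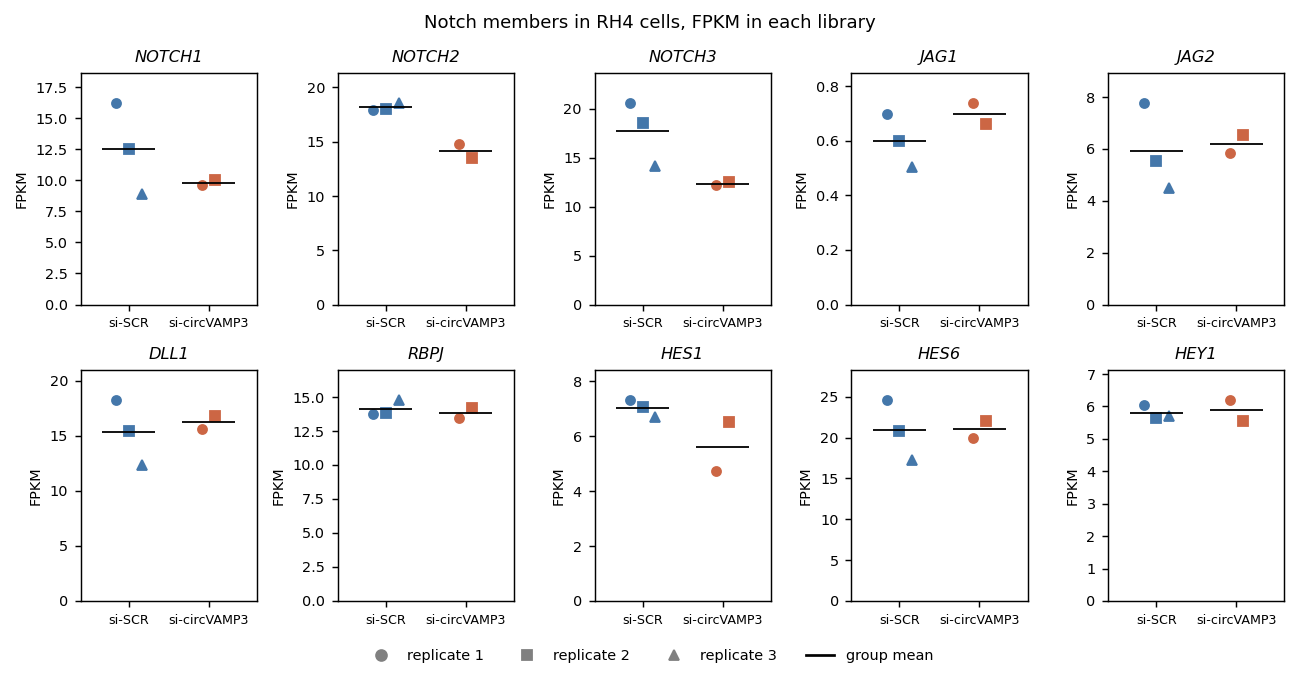
FPKM of the 10 Notch members in each library (vertical axis from 0, own scale per gene; symbols give the replicate number, bars the group mean, n = 3 si-SCR and n = 2 si-circVAMP3). The groups lie apart for NOTCH2, NOTCH3 and HES1, while NOTCH1, JAG2, DLL1 and HES6 have si-SCR replicate 1 at the top and si-SCR replicate 3 at the bottom.

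NOTCH2 had the smallest p of the members. This receptor gene (chr1:119911553-120100779, minus strand) was at 18.0, 18.0 and 18.5 FPKM in si-SCR and at 14.8 and 13.5 FPKM in si-circVAMP3. The si-SCR libraries were close together, with a coefficient of variation (CV) of 1.73%, and both si-circVAMP3 libraries lay below them. The mean went from 18.2 ± 0.314 FPKM (SD, n = 3) to 14.1 ± 0.960 FPKM (SD, n = 2), 0.778 times the si-SCR mean. The log2 difference was -0.35 (SE 0.054, 95% interval -0.48 to -0.22, limma adjusted p = 0.00532). At least 5475 fragments stood behind each library's value, a counting error of at most 1.35%. NOTCH2 has near-identical partial copies, of which NOTCH2NLC had a row at 0.218 to 0.307 FPKM; how reads common to them were shared out was not tested.

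NOTCH3, the receptor known best from vascular muscle, lies at chr19:15159038-15200995 on the minus strand. Its values were 20.5, 18.5 and 14.2 FPKM in si-SCR and 12.2 and 12.5 FPKM in si-circVAMP3. Here the si-SCR libraries were spread widely (CV 18.4%), with replicate 3 nearest to the treated group, and the groups did not overlap. The log2 difference of -0.49 (SE 0.14, 95% interval -0.83 to -0.16) had a limma adjusted p of 0.0392, and the mean in si-circVAMP3 was 0.694 times that in si-SCR. That call depended on single libraries. The adjusted p was 0.0667 without si-SCR replicate 1, 0.114 without si-SCR replicate 2, 0.174 without si-circVAMP3 replicate 1 and 0.152 without si-circVAMP3 replicate 2, and over all alternatives it ran from 0.000308 to 0.174, always with a lower level in si-circVAMP3.

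NOTCH1 (chr9:136494433-136546048, minus strand) did not pass the test. It was at 16.2, 12.5 and 8.90 FPKM in si-SCR and at 9.64 and 9.99 FPKM in si-circVAMP3. The si-SCR values ran from well above to below the treated libraries, so the groups overlapped. Its CV of 29.1% in si-SCR was at percentile 97.7 of all genes tested. The log2 difference was -0.30 with a 95% interval of -0.81 to 0.21 (limma adjusted p = 0.330). Without si-SCR replicate 3 it was -0.51 (adjusted p = 0.0153), and without si-SCR replicate 1 it was -0.10 (adjusted p = 0.647). The fourth receptor, NOTCH4, was at 0.432 to 0.621 FPKM and had a mean below the filter.

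None of the ligands was called. DLL1, the Delta ligand with the highest level, was at 18.3, 15.4 and 12.3 FPKM in si-SCR and at 15.6 and 16.8 FPKM in si-circVAMP3. The treated libraries lay inside the si-SCR range. Its log2 difference was 0.09 (95% interval -0.25 to 0.44, limma adjusted p = 0.666). JAG2 was at 7.76, 5.53 and 4.48 FPKM in si-SCR and at 5.84 and 6.53 FPKM in si-circVAMP3, again inside the si-SCR range, with a log2 difference of 0.09 (95% interval -0.38 to 0.55). The sign of these 2 differences turned without si-SCR replicate 3, to -0.05 for DLL1 and -0.08 for JAG2. JAG1, the other Jagged ligand, was near the filter at 0.698, 0.598 and 0.504 FPKM in si-SCR and 0.737 and 0.661 FPKM in si-circVAMP3. Those groups overlapped, and at least 117 fragments stood behind each value, a counting error of at most 9.25%. The log2 difference of JAG1 was 0.13 (95% interval -0.12 to 0.37), and it was 0.063 without si-SCR replicate 3, 0.082 without si-circVAMP3 replicate 1 and 0.19 without si-SCR replicate 1; the pseudocount of 0.5 shrinks it, since the ratio of the means was 1.16. With DLL3 counted in, 0 of 4 ligands tested had an adjusted p under 0.05 by limma, and 0 had an unadjusted p under 0.05. Of all 12245 genes tested, 3723 had an adjusted and 5222 an unadjusted p under 0.05.

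RBPJ, the DNA-binding factor through which all 4 receptors act, lies at chr4:26163455-26435131. It was at 13.8, 13.8 and 14.8 FPKM in si-SCR and at 13.5 and 14.2 FPKM in si-circVAMP3. The groups overlapped and the libraries lay close together (CV 4.05% in si-SCR). The log2 difference was -0.03 with a narrow 95% interval of -0.16 to 0.10 (limma adjusted p = 0.712), the tightest interval among the 10 members.

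Of the target genes, HES1 is the repressor most often used as a readout of Notch activity. It was at 7.32, 7.05 and 6.70 FPKM in si-SCR and at 4.72 and 6.51 FPKM in si-circVAMP3. Both treated libraries were below the controls, but si-circVAMP3 replicate 2 only just, and the treated libraries differed from each other by 31.9% of their mean. The log2 difference was -0.31 (SE 0.12, 95% interval -0.60 to -0.024, unadjusted p = 0.0376, limma adjusted p = 0.0953). Without si-circVAMP3 replicate 2 the difference was -0.53 (adjusted p = 0.0251) and without si-circVAMP3 replicate 1 it was -0.10 (adjusted p = 0.454). The lower treated library had at least 180 HES1 fragments, a counting error of at most 7.45%.

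HES6, which counteracts HES1 and favours muscle differentiation, had the highest level of the 10 members. Its values were 24.6, 20.8 and 17.3 FPKM in si-SCR and 20.0 and 22.0 FPKM in si-circVAMP3. The treated libraries lay within the si-SCR range and the log2 difference was 0.020 (95% interval -0.30 to 0.34, limma adjusted p = 0.924). HEY1, a related repressor, was at 6.03, 5.66 and 5.70 FPKM in si-SCR and at 6.21 and 5.56 FPKM in si-circVAMP3. Its treated libraries fell on either side of the controls, with a log2 difference of 0.019 (95% interval -0.14 to 0.18, limma adjusted p = 0.856).

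HEYL, a further HEY repressor that is not among the 10 members, had the largest change of the HES and HEY genes tested. It was at 30.3, 30.6 and 28.3 FPKM in si-SCR and at 17.9 and 15.8 FPKM in si-circVAMP3. The treated libraries lay far below the controls, at 0.567 times their mean. The log2 difference was -0.80 (SE 0.066, 95% interval -0.96 to -0.64, limma adjusted p = 0.000705), and HEYL was called in each alternative run. HES7 was low, at 1.52, 1.04 and 1.22 FPKM in si-SCR and 1.58 and 2.16 FPKM in si-circVAMP3. Both treated libraries were above the controls, opposite to HES1 and HEYL, with a log2 difference of 0.43 (SE 0.15, unadjusted p = 0.0248, limma adjusted p = 0.0702), so it was not called. HES4 (0.968 to 1.84 FPKM) was not called either, HES2 was below the filter, and HES5 and HEY2 had no row. Over this group 1 of 6 genes tested was called (16.7%), against 30.4% of all genes tested.

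HES1 and HEYL were the target genes whose treated libraries both lay below the controls, and the 250 bases before their start sites are printed for that reason, from RefSeq on GRCh38.p14 and read along the gene. Capitals mark GTGGGAA, the letters of an RBPJ site, and its core TGGGAA, searched on both strands (TTCCCAC and TTCCCA on the other strand); the longer motif contains the core.
HES1, chr3:194135898-194136147, plus strand: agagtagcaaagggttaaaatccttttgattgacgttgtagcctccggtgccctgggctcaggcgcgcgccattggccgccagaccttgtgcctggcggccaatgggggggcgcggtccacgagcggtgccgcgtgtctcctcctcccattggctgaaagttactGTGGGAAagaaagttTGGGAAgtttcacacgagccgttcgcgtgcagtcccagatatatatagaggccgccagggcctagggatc
HEYL, chr1:39639644-39639893, minus strand: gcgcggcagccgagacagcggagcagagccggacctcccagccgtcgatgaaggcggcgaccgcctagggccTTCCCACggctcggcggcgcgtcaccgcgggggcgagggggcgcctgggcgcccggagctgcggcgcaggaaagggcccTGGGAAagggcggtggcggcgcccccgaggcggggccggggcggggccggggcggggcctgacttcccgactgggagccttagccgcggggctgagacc
In HES1 the motif GTGGGAA begins at -85 from the start site and a second TGGGAA at -70, both on the gene's strand. In HEYL it begins at -178 on the other strand, and a TGGGAA begins at -99 on the gene's strand. GTGGGAA or its complement was in 5.43% of 35116 promoters of that length and in 4.89% of the 15217 that belong to genes of the FPKM table; the core was in 20.8% and 19.1%. The promoters of NOTCH1, NOTCH2, NOTCH3, JAG1, JAG2 and HES6 held 0 matches, and 1 of 5 RBPJ starts held 2 of the longer motif. DLL1 and HEY1 had no promoter entry. Of the target genes that were not lower, searched in the same way, HES4 held 1 match of the longer motif, and HES7 and NRARP held 0. HES1 and HEYL were picked for their values, and a match describes letters only.

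**Figure D2:**
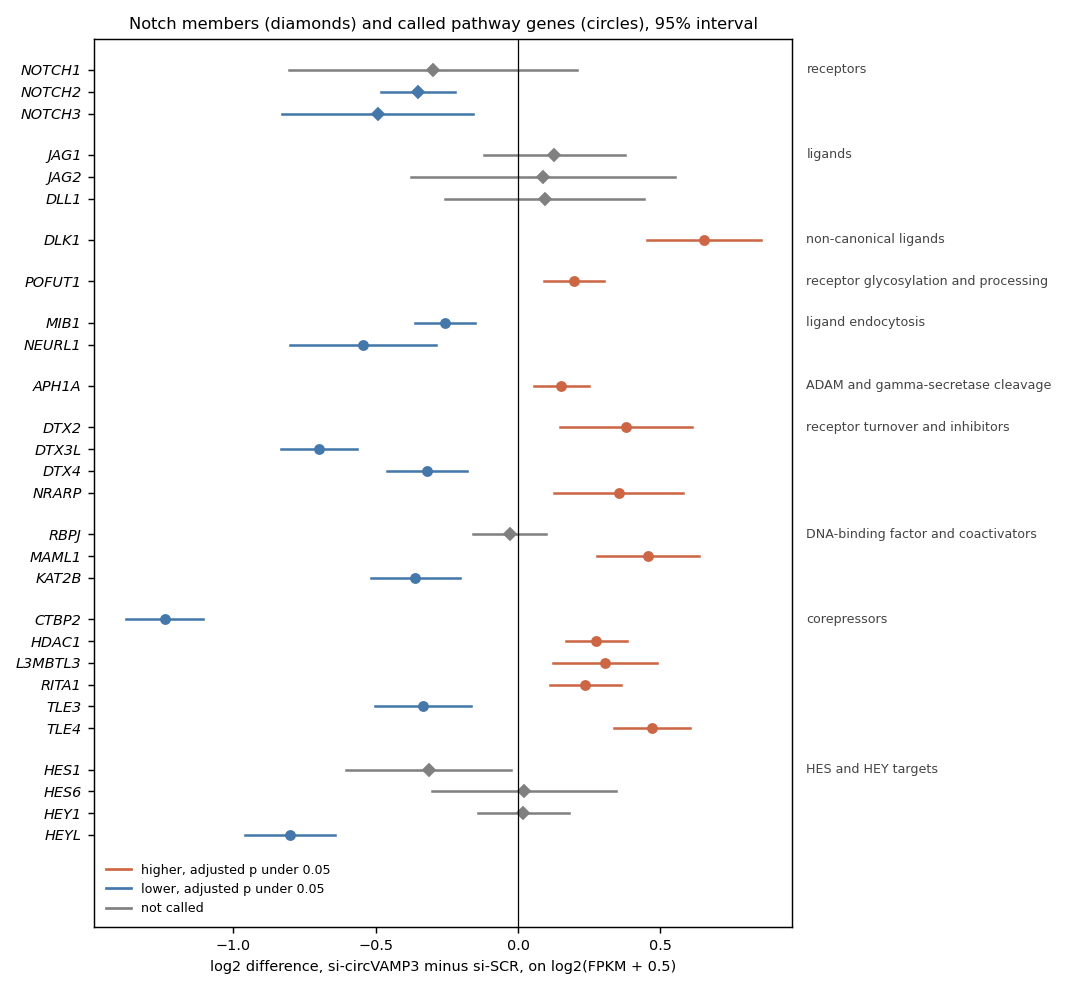
Log2 difference, si-circVAMP3 minus si-SCR, on log2(FPKM + 0.5), with its 95% interval from limma, for the 10 members (diamonds) and the 18 other pathway genes called (circles), by role. Among the members the intervals of NOTCH2, NOTCH3 and HES1 lie below 0, and HES1 was not called; CTBP2 at -1.24, HEYL at -0.80 and DTX3L at -0.70 are farthest to the left and DLK1 at 0.65 farthest to the right.

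FPKM is per length, which lets levels be set side by side between genes, although the values also moved with GC content between libraries. In si-SCR the order by mean FPKM was HES6 (20.9), NOTCH2 (18.2), NOTCH3 (17.7), DLL1 (15.3), RBPJ (14.1), NOTCH1 (12.5), HES1 (7.02), JAG2 (5.92), HEY1 (5.80) and JAG1 (0.600). Library ranges of neighbours overlapped from HES6 down to NOTCH1, and again from HES1 to HEY1. They did not overlap between NOTCH1 and HES1 or between HEY1 and JAG1. Genes further apart in the order could also be separate, as the si-SCR ranges of HES6 and NOTCH2 lay above those of RBPJ and NOTCH1. In si-circVAMP3 the mean FPKM of DLL1 (16.2) stood above those of NOTCH2 (14.1) and NOTCH3 (12.3). Against all genes tested, the si-SCR level of HES6 was at percentile 82.0 and that of JAG1 at percentile 2.12.

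The members with the widest spread within si-SCR included those with the highest GC content. Transcripts of NOTCH1, NOTCH3, JAG2 and HES6 were 63.1 to 68.4% GC, in the highest of 10 equal bins of genes by GC, and DLL1 was 59.5% GC. In that bin (61.2 to 74.2% GC, 1221 genes) the median log2 deviation from the si-SCR mean was 0.13 in replicate 1, 0.046 in replicate 2 and -0.17 in replicate 3. In the lowest bin it was -0.010, -0.020 and 0.030. NOTCH1, NOTCH3, JAG1, JAG2, DLL1, HES1 and HES6, 7 of the 10 members, had si-SCR replicate 1 highest and replicate 3 lowest, as did 20.2% of all genes tested. JAG1 (49.6% GC) and HES1 (50.0% GC) had that order at middling GC, whereas NOTCH2 (49.4% GC), HEY1 (45.0% GC) and RBPJ (36.8% GC) did not.

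Removing the smooth GC trend from each library, an alternative chosen after seeing the data, called the same 2 members, while the share called over all genes tested was 36.6% and 25 of the other pathway genes listed were called. The CV in si-SCR fell for 7 members and rose for 3. It went from 17.6% to 2.22% for HES6, from 18.4% to 9.40% for NOTCH3 and from 29.1% to 20.0% for NOTCH1, but from 16.1% to 20.4% for JAG1, from 4.45% to 6.91% for HES1 and from 3.53% to 5.84% for HEY1. NOTCH3 then had a log2 difference of -0.56 (SE 0.075, limma adjusted p = 0.00187) and NOTCH2 of -0.35 (adjusted p = 0.00197). For NOTCH1 it was -0.36 (adjusted p = 0.0830), with corrected values of 15.2, 12.4 and 10.1 FPKM in si-SCR above 9.56 and 9.51 FPKM in si-circVAMP3. The groups of NOTCH1 and HES6 no longer overlapped after the correction, while those of HES1 did; 4 of the 10 members then had groups apart, against 60.8% of all genes tested. The sign of the HES6 difference turned, to -0.064 (adjusted p = 0.235), and that of RBPJ to 0.013 (adjusted p = 0.844). Where the GC trend of the libraries came from was not tested.

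**Figure D3:**
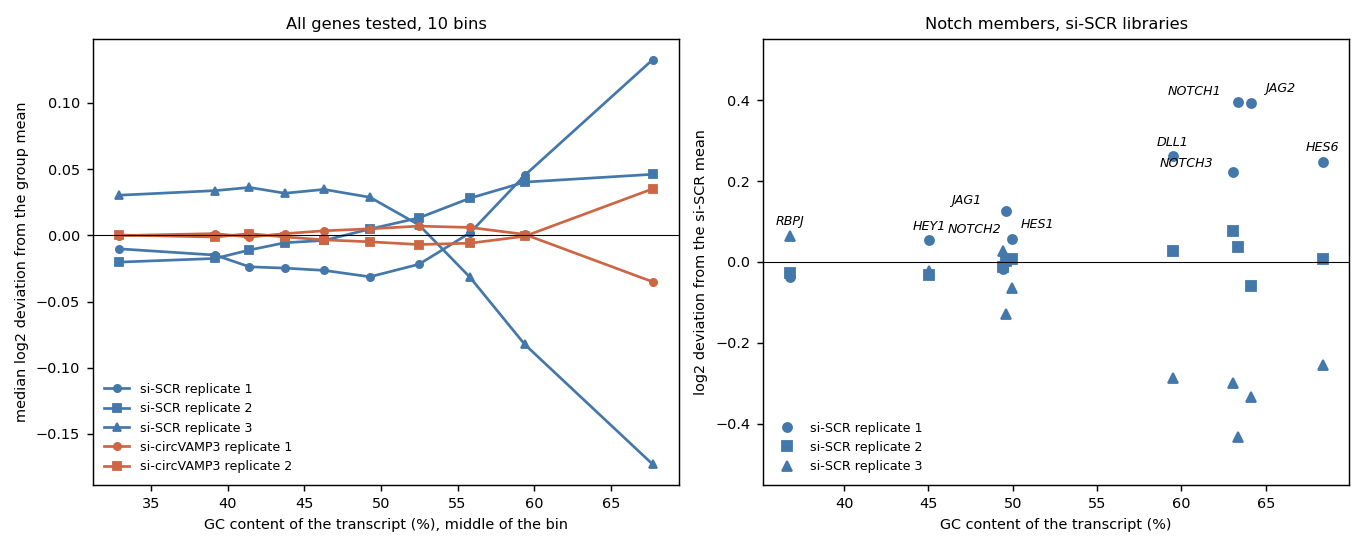
Left, median log2 deviation of each library from the mean of its group in 10 bins of genes by transcript GC content (the 2 si-circVAMP3 libraries mirror each other because their mean is the reference). Right, log2 deviation of the 10 members in the 3 si-SCR libraries against GC content; above 59% GC replicate 1 lies above and replicate 3 below the si-SCR mean for each of the 5 members there.

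Beyond the members, 62 genes of the pathway were listed by role, of which 59 had a row and 53 were tested. Of these, 18 (34.0%) were called against 30.4% of all genes tested, 10 higher and 8 lower, with a median log2 difference of 0.060 against 0.0071. The groups did not overlap for 30 of the 53, against 58.5% of all genes. Leaving out si-circVAMP3 replicate 1 ended 12 of the 18 calls (adjusted p 0.0524 to 0.171), leaving out replicate 2 ended 12 (0.0516 to 0.131), leaving out si-SCR replicate 2 ended 6 (0.0597 to 0.0845) and leaving out si-SCR replicate 1 ended 2 (0.0594 to 0.0733). Calls ended with either si-circVAMP3 library left out for POFUT1, MIB1, NEURL1, APH1A, DTX2, NRARP, KAT2B, HDAC1, L3MBTL3, RITA1 and TLE3, with replicate 1 left out for MAML1 and with replicate 2 left out for DTX4. CTBP2, DTX3L and HEYL were called in each alternative run and DLK1 in each that tested it (its mean is below the stricter filter of 1 FPKM). TLE4 was called in each except the one that also asks for an absolute log2 difference over 0.58.

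Among the non-canonical ligands, DLK1 rose. It was at 0.600, 0.602 and 0.550 FPKM in si-SCR and at 1.14 and 1.27 FPKM in si-circVAMP3. Both treated libraries stood above the controls, at 2.06 times their mean, with a log2 difference of 0.65 (SE 0.083, limma adjusted p = 0.00275) at this low level. DLK2 had the higher mean in si-SCR (1.20 FPKM) but not in si-circVAMP3 (1.14 against 1.21 FPKM for DLK1), and was not called. Of the enzymes that modify the receptors, POFUT1, which adds O-fucose, rose from 42.3 to 48.4 FPKM (log2 difference 0.20, limma adjusted p = 0.0183). It was the 1 called of 5 tested (20.0%, against 30.4% of all genes tested).

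Of the ubiquitin ligases that drive ligand endocytosis, 2 of 4 fell and 0 rose. Of all genes tested, 15.8% were called lower and 30.4% in either direction. MIB1 (Mindbomb), the most abundant, was at 15.2, 15.1 and 15.5 FPKM in si-SCR and at 12.8 and 12.6 FPKM in si-circVAMP3. The libraries of each group lay close together and apart from the other group (log2 difference -0.26, SE 0.044, limma adjusted p = 0.00735). NEURL1 (Neuralized) was low, at 0.589 to 0.778 FPKM in si-SCR and 0.261 to 0.315 FPKM in si-circVAMP3, with at least 24 fragments in each library (log2 difference -0.54, adjusted p = 0.0118). At that level the difference moved with the pseudocount: it was -0.95 with 0.1 and -0.36 with 1, and the treated mean was 0.441 times the control mean. Among the ADAM proteases and gamma-secretase subunits that cut the receptor, 1 of 8 was called (12.5%, against 30.4% of all genes tested). It was APH1A, at 45.3 to 47.2 FPKM in si-SCR and 51.2 to 52.3 FPKM in si-circVAMP3 (log2 difference 0.15, adjusted p = 0.0306), and it kept its call in 8 of the 16 alternatives that used the adjusted p alone.

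Of the genes for receptor turnover and inhibition, 4 of 9 were called (44.4%, against 30.4% of all genes tested), 2 in each direction. DTX3L, a ubiquitin ligase of the Deltex family, was at 6.08, 5.99 and 5.85 FPKM in si-SCR and at 3.52 and 3.46 FPKM in si-circVAMP3. The treated libraries were well below the controls, at 0.584 times their mean (log2 difference -0.70, SE 0.056, limma adjusted p = 0.000635). DTX4 fell too, from 13.7 to 10.9 FPKM (log2 difference -0.32), while DTX2 rose from 1.48 to 2.07 FPKM (0.38). NRARP, a Notch target that dampens the pathway, rose from 2.73 to 3.62 FPKM (0.35, adjusted p = 0.0323), in the direction opposite to HEYL. ITCH, the most abundant of the group, was at 15.1 to 16.2 FPKM and was not called.

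Around RBPJ itself, 2 of the 6 other coactivator genes tested were called (33.3%, against 30.4% of all genes tested). MAML1, the Mastermind coactivator, was at 9.36, 9.46 and 8.23 FPKM in si-SCR and at 13.1 and 12.0 FPKM in si-circVAMP3. Both treated libraries were above the controls, at 1.39 times their mean (log2 difference 0.46, SE 0.075, limma adjusted p = 0.00660). KAT2B, an acetyltransferase, fell from 3.29 to 2.45 FPKM (log2 difference -0.36, adjusted p = 0.00866). SNW1, the most abundant, was at 34.4 to 37.4 FPKM in si-SCR and 39.6 to 40.1 FPKM in si-circVAMP3, with an adjusted p of 0.0506.

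The corepressors had 6 of 15 called (40.0%, against 30.4% of all genes tested), 4 higher and 2 lower. They held the largest change among the pathway genes listed. CTBP2 (chr10:124984317-125161170, minus strand) was at 10.1, 10.1 and 10.2 FPKM in si-SCR and at 4.16 and 3.81 FPKM in si-circVAMP3. The treated libraries were at 0.395 times the control mean, with no overlap. Its log2 difference was -1.24 (SE 0.057, 95% interval -1.38 to -1.11, limma adjusted p = 0.000118), rank 18 by p of all genes tested. CTBP1, its close relative, was at 11.5 to 15.5 FPKM in si-SCR and 13.9 to 14.4 FPKM in si-circVAMP3 and was not called.

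TLE proteins are the Groucho corepressors that HES factors bring to DNA. TLE4 was at 8.71, 8.88 and 8.37 FPKM in si-SCR and at 12.6 and 11.7 FPKM in si-circVAMP3, above every control (log2 difference 0.47, SE 0.056, limma adjusted p = 0.00213). TLE3 went the other way, from 2.64 to 1.99 FPKM (-0.33, adjusted p = 0.0146). HDAC1, a histone deacetylase and the most abundant of the corepressors, rose from 49.6 to 60.1 FPKM (0.28, adjusted p = 0.00662). L3MBTL3 and RITA1, which bind RBPJ, rose from 1.89 to 2.45 FPKM (0.31) and from 8.41 to 10.0 FPKM (0.24).

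**Figure D4:**
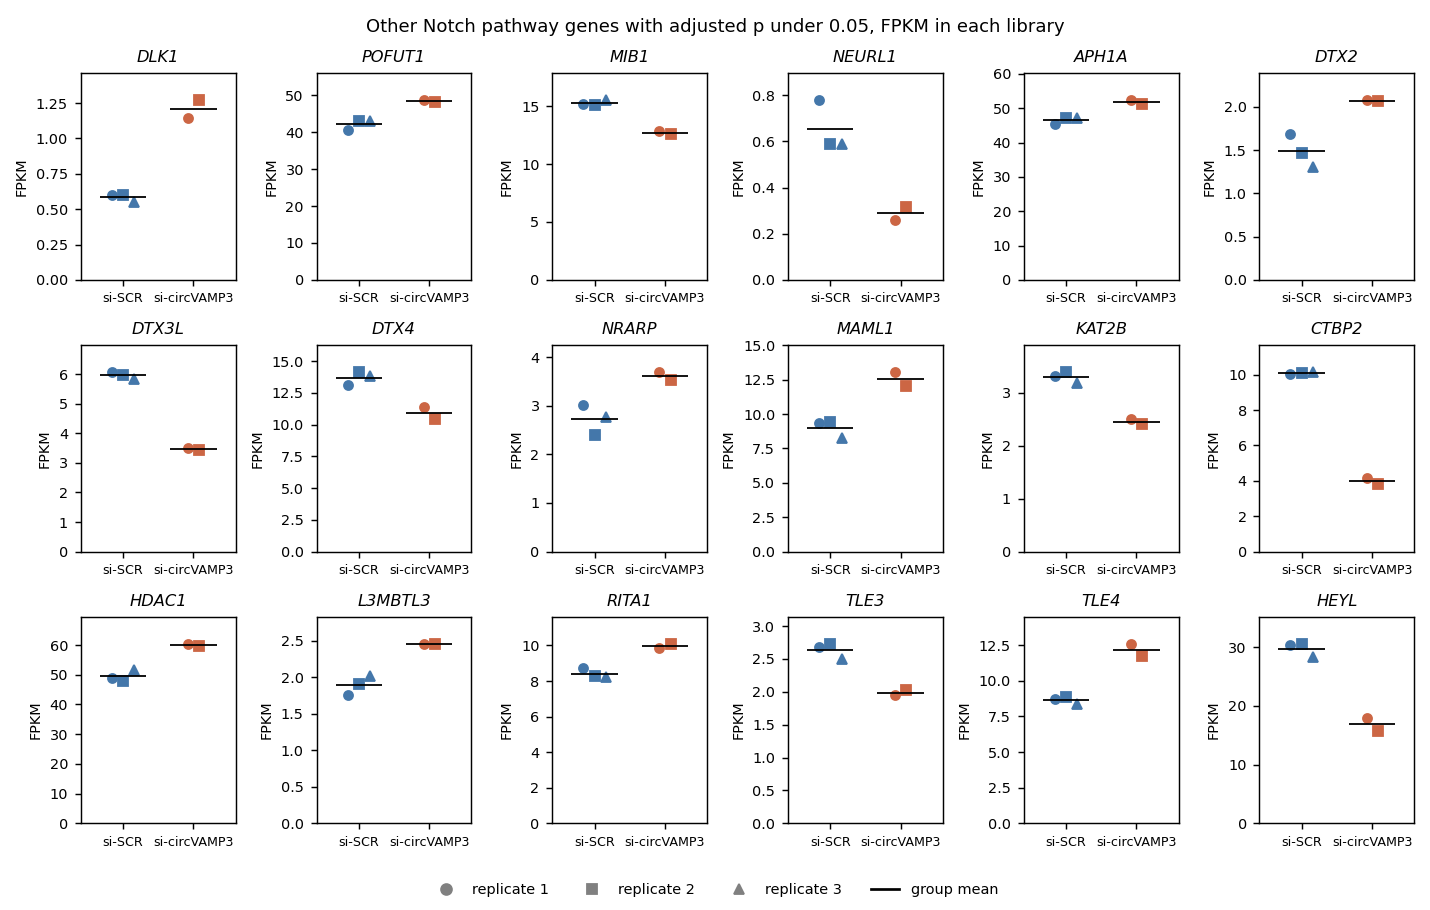
FPKM in each library of the 18 other Notch pathway genes with an adjusted p under 0.05 (vertical axis from 0, own scale per gene; bars give group means, n = 3 and n = 2). The groups lie apart in every panel; CTBP2 goes from 10.1 to 3.99 FPKM and HDAC1 from 49.6 to 60.1 FPKM.

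Genes whose profile over the 5 libraries was most like a member's were sought among 6755 genes with a mean of at least 5 FPKM. For NOTCH2 they were CEP41, LRP6 and CCDC144NL-AS1, with Pearson's r of log2(FPKM + 0.5) of 1.000, 0.999 and 0.998. With 5 points such values are common: 645 genes had r above 0.95 with NOTCH2. For HES6 the nearest were SBNO2, PHRF1 and MFSD10 (r of 0.996 for each), and 72 genes were above 0.95. The values are a description of these 5 libraries.

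Markers of the cell line were checked in the same table. Of 10 skeletal muscle lineage genes 9 had a row, with DES highest by the mean over the 5 libraries and ACTC1 highest in each si-SCR library, and their summed level was 1057, 1093 and 946 FPKM in si-SCR and 785 and 793 FPKM in si-circVAMP3. Of 6 known targets of the fusion protein all 6 had a row, led by FGFR4, and 0 were called; their sum was 326, 310 and 270 FPKM in si-SCR and 250.3 and 264 FPKM in si-circVAMP3. The endothelial list had 1 of 5 genes, PECAM1, at 0.0777 to 0.153 FPKM, the haematopoietic list 0 of 4, the epithelial list 0 of 3 and the fibroblast list 2 of 4, led by PDGFRA at 0.757 to 0.882 FPKM. The sum of the muscle list was lower in both si-circVAMP3 libraries, and ACTC1 and MYOG carried that move. Without these 2 genes, chosen after their values were seen, the sum was 568, 559 and 484 FPKM in si-SCR and 515 and 522 FPKM in si-circVAMP3, and the groups overlapped. The part of the muscle genes in the Notch values was not tested. In bulk RNA, fewer cells with a transcript and less transcript per cell cannot be told apart.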

How the data were processed

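Poly-A+ RNA of RH4 cells was sequenced by the authors from 3 si-SCR and 2 si-circVAMP3 biological replicates. Per their methods, the authors aligned reads to GRCh38 with STAR (version 2.5.2b), counted fragments by strand with HTSeq, removed low genes and computed the deposited FPKM with edgeR. Symbols matched 13783 of 13822 rows. FPKM is not a count, so log2(FPKM + 0.5) was fitted with limma 3.58.1 (eBayes with trend, two-sided) in R 4.3.3 for genes with a mean FPKM of at least 0.5, without a block, with Benjamini-Hochberg adjustment over 12245 genes. An exact permutation test of 3 against 2 libraries cannot give a p below 0.1. Fragments are the smallest whole numbers behind the FPKM, found for 99.9% of rows (tolerance 1e-06), and are lower bounds. Transcript GC content came from the longest GENCODE transcript. Named genes included the members, VAMP3, pathway genes called, the highest gene per role and marker list, and the 3 most correlated genes. Further genes of the same lists or families, such as HES7, CTBP1 and MYOD1, were named for context. Members and lists were chosen with earlier results of these data known. Pseudocounts, filters, scalings, limma options, a replicate block and left-out libraries were varied, and the fit was tested on simulated data.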

Additional observations from a re-analysis of the deposited data

How the results depend on the processing

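NOTCH2 was called in the 16 alternatives that used the adjusted p alone, with log2 differences of -0.42 to -0.29. NOTCH3 was called in 11 of them, and without the limma trend its adjusted p was 0.0566. With an absolute log2 cutoff of 0.58, called genes were 133 higher and 333 lower, members 0 and other pathway genes 4. An unadjusted limma p under 0.05 was found for 3 of the 10 members, against 5222 of 12245 genes tested. Without the trend 1 member was called, against 27.8% of all genes tested. Leaving out 1 library gave 483 to 1985 genes higher, 777 to 2015 lower, 1 to 3 members and 6 to 21 other pathway genes; with 1 si-circVAMP3 library left, that library is assumed to vary like the si-SCR libraries. With the replicate block 1460 genes were higher, 1662 lower, 3 members and 17 other pathway genes called, NOTCH1 among them (-0.51, adjusted p = 0.0278); the block ended the calls of APH1A (0.0630), DTX2 (0.0592) and RITA1 (0.0518), the adjusted p in parentheses. Same-numbered libraries deviated with r of -0.15 and -0.036. These values cannot decide on pairing, since the deviations of the 2 si-circVAMP3 libraries mirror each other. Whether the numbers mark pairs is not given, so they were not read as pairing. The replicate block with the GC correction, chosen after seeing the data, called 4 members (34.1% of all genes tested), with HES1 at -0.36 (adjusted p = 0.0449). Signs turned only for members that were not called, with adjusted p of at least 0.235. With the replicate block and without si-SCR replicate 3, which leave the same estimates, JAG2 was -0.080, DLL1 -0.050, RBPJ 0.0026 and HES6 -0.11. With the block and GC correction they were -0.065, -0.064, 0.026 and -0.069; with GC correction alone RBPJ was 0.013 and HES6 -0.064. HES6 was -0.0051 with sample weights and -0.048 without si-circVAMP3 replicate 2. Without si-circVAMP3 replicate 1 RBPJ was 0.0060 and HEY1 -0.054. Leaving out 1 library, the ranges were -0.080 to 0.28 for JAG2, -0.050 to 0.22 for DLL1, -0.065 to 0.0060 for RBPJ, -0.11 to 0.14 for HES6 and -0.054 to 0.091 for HEY1. The cause of these changes was not tested. Depth may limit NEURL1, HES4, DLL3, DLK2, HES7, DLK1 and JAG1, for which the lowest library held at least 24, 27, 41, 43, 49, 72 and 117 fragments.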

Other observations

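Among the muscle lineage genes, 3 of the 9 with a row fell and 0 rose; of all genes tested, 15.8% were called lower and 30.4% in either direction. MYOG, the regulator that starts terminal differentiation, was at 175, 179 and 149 FPKM in si-SCR and at 100.7 and 96.6 FPKM in si-circVAMP3 (log2 difference -0.76, SE 0.081, limma adjusted p = 0.00156). ACTC1, the cardiac actin of immature muscle, was at 313, 355 and 313 FPKM against 169 and 175 FPKM (-0.92, SE 0.065, adjusted p = 0.000409). TNNT2, a troponin of the same stage, was at 1.30 to 1.58 FPKM in si-SCR and at 0.960 to 1.08 FPKM in si-circVAMP3 (-0.35, adjusted p = 0.0316). MYOD1 was at 84.3 to 115 FPKM in si-SCR and at 105.6 and 127 FPKM in si-circVAMP3 and was not called. The other genes of the list with a row were not called either. Their log2 differences were -0.11 for DES, -0.060 for CHRNA1, -0.099 for PAX3, -0.35 for CDH15 and 0.26 for MYMK.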
